A study of Drosophila melanogaster with 2 samples.

Results

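Described here are 385 chromatin immunoprecipitation summits at divergent gene pairs in Drosophila melanogaster embryos. At these places the transcription start sites (TSSs) of 2 protein-coding genes lie close together on opposite strands. Most point away from each other. In a few the order is reversed, so that the TSSs point towards each other. The 385 summits were chosen by their rank on the authors' pooled signal (past rank 300, down to the last peak of the authors' list of reproducible peaks) and by having TSSs of 2 different protein-coding genes on opposite strands within 500 bp. They are 15.2% of the 2528 summits of these ranks on the arms of chromosomes 2 and 3 and on X, and 26.7% of those with any protein-coding TSS within 500 bp. A further 1058 summits had TSSs of 1 strand only and are called single-gene promoter summits. The immunoprecipitated DNA was sequenced (ChIP-seq) and came from whole embryos aged 0 to 24 h, with males and females pooled, from a line that carries a C-terminal green fluorescent protein (GFP) tag on the product of CG15812. The 2 samples are biological replicates 1 and 2 of this single group, and both carry the tag. The labels call the factor pfk, whereas the annotation gives the symbol Pfk to the phosphofructokinase gene, so CG15812 is used here. The description field of each sample names it an input control, but the assay title and the antibody entry belong to an immunoprecipitation, which is how both were taken here. Whole embryos mix all cell types and stages, no sample without the tag was analysed here, and the replicates share 1 control alignment.

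In compact genomes such as that of the fly, many genes lie head to head, and the sequence between their TSSs serves as the promoter of both. Broadly expressed genes are common in such pairs. A frequent element of these promoters is the DNA replication-related element (DRE, TATCGAT), bound by the factor DREF. Read on its other strand, the DRE contains CGATA, the core recognised by the insulator protein BEAF-32.

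The sequences below show both kinds of site to which the results refer. All are plus-strand sequence, 5′ to 3′, of build dm6, and are cut to the part within 50 bp of a summit that lies outside annotated exons. The first 5 are members of high signal whose DRE falls in such a part, and capitals mark the DRE on either strand. RpS25, RpL28, RpL32 and RpS19a encode ribosomal proteins.
RpS25/CG4820 (chr3R:11216288-11216362): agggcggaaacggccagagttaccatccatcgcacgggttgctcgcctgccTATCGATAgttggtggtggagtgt
RpL28/eIF1 (chr3L:3222961-3223051): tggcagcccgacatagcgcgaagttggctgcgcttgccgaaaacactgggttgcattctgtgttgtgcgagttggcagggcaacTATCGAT
RpL32/CG7943 (chr3R:30046168-30046268): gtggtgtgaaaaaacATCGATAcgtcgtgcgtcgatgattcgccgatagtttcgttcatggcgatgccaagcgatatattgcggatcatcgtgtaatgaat
Rok/RpS19a (chrX:16637835-16637893): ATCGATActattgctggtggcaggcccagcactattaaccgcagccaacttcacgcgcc
CG14995/Fit1 (chr3L:4103495-4103563): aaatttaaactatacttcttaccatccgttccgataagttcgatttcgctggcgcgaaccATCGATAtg
In RpS25/CG4820 the DRE reads TATCGATA, a palindrome that matches on both strands. The next 3 are members of high signal with GGAACG in such a part, with GGAACG or its complement in capitals. This 6-base sequence was known from earlier results of these data over all peaks. The CG14995/Fit1 sequence above also holds it, as CGTTCC left in lower case.
Graf/mRpL3 (chrX:15760748-15760848): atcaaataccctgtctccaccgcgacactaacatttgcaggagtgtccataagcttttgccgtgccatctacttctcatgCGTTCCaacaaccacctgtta
BCAS2/RpL4 (chr3R:27922751-27922820): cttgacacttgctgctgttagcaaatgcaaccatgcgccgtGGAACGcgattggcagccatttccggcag
SMC6/CG6204 (chr3R:24193428-24193528): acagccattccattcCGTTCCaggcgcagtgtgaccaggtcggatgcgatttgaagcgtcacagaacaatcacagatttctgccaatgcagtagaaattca
The last is the promoter shared by RpL13 and Dref, the gene that encodes DREF. Neither sequence is within 50 bp of its summit.
Dref/RpL13 (chr2L:9967253-9967312): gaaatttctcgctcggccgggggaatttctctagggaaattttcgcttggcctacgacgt

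The depth of sequencing is unknown, since the deposited lists give signals and no read counts. The DNA fragments of both samples are given as 200 to 800 bp, longer than many of the distances below. The error of a summit position was not measured, so small differences between 2 distances may not be resolved. Intervals are 95% Wilson intervals and cover counting error only. Signals are in the authors' units, whose scale the sources used here do not give, and served to rank and describe regions. The −log10 q-value deposited by the authors was 3.95 for every member and separates none of them. Test values over summits or gene pairs compare regions of 1 pooled list and measure the spread among regions, not among embryos.

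Most summits lay between the TSSs of their pair and close to one of them. The 385 summits belonged to 365 different pairs and 730 genes. The TSSs ran head to head at 375 summits, with spacing quartiles of 143.5, 269 and 382.5 bp. At 10 summits the plus-strand TSS lay left of the minus-strand TSS, so that the TSSs point towards each other. Pairs in this order are called overlapping. Of all members, 304 lay between the TSSs (79.0%, 74.6 to 82.7%). The median distance was 52 bp to the nearer TSS and 212 bp to the farther one, and 293 summits (76.1%) lay within 100 bp of the nearer TSS against 65 (16.9%) within 100 bp of both. Of the 303 summits between head-to-head TSSs, 142 (46.9%) fell in the middle 50% of the gap. The annotation placed 238 summits in intergenic sequence, 103 in a 5′ untranslated region (UTR), 35 in introns, 5 in non-coding exons, 3 in a 3′ UTR and 1 in a coding exon. By arm, 2L held 82 members, 2R 76, 3L 82, 3R 90 and X 55. With 1 TSS per gene the share between the TSSs was 69.3% of 361 summits. These positions follow in part from the 500 bp limit that chose the members and are a description.

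**Figure D1:**
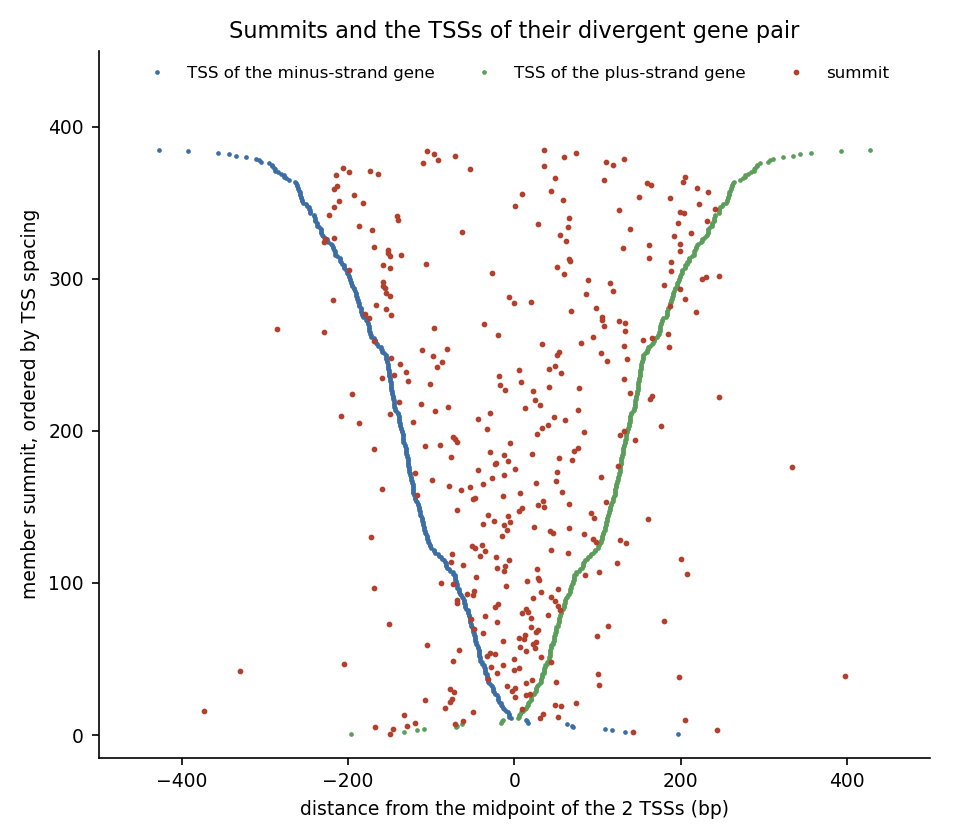
Each row is a member summit, ordered by the spacing of its 2 TSSs, and the horizontal axis is the distance in bp from their midpoint, with blue and green points for the TSSs of the minus-strand and plus-strand gene and red points for the summit. Summits lie mostly between both TSSs (304 of 385) and are spread over the gap, with 142 of 303 in its middle 50%.

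The most widely spaced pairs were CG16956/CG42784 at 856 bp, DAT/CG4945 at 785 bp and spirit/CG12065 at 713 bp. DAT encodes the dopamine transporter. The 3 overlapping pairs of most negative spacing were CG15343/CG1636 at -394 bp, oys/COX7C at -266 bp and CG31808/Cyt-c-d at -234 bp. COX7C and Cyt-c-d encode a cytochrome c oxidase subunit and a cytochrome c of the respiratory chain. At the distance limit, E(bx)/mthl14 and DAT/CG4945 were inside, with the farther TSS 496 and 498 bp from the summit, and Mpc1/CG42613 and CG43102/pasi1 were outside at 501 and 503 bp.

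A pair of summits was found at 20 gene pairs, never more. In 16 of the 20, each summit had a different nearest TSS. At RpL34b/CG8132 the summits had signals of 549 and 169, and lay 61 bp from the TSS of RpL34b and 8 bp from that of CG8132. The higher summit thus sat at RpL34b, a ribosomal protein gene. The summits of a pair were 199 to 270 bp apart, with a median of 202 bp, and shared 1 called region at 6 of the 20 pairs. No summits of a pair were closer than that. The median TSS spacing of these 20 pairs was 308 bp, so the different nearest TSSs follow in part from the distance between the summits.

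Signal ranged from 127.8 to 1020.7 with a median of 181.6, against 184.5 at single-gene promoter summits, within the shared rank limits. The highest members were Cdk1/mRpS7, Klc/CG10984, PTP-ER/mahj, Usp14/CG4972 and CG9281/CG15601. Cdk1 encodes the kinase that drives entry into mitosis, mRpS7 a mitochondrial ribosomal protein, Klc the kinesin light chain and Usp14 a deubiquitinase of the proteasome. At Cdk1/mRpS7 the pooled list gave 1021, replicate 1 gave 350 and replicate 2 gave 709. Klc/CG10984 had 995 in the pooled list, 495 in replicate 1 and 519 in replicate 2. The next 5 were U2af50/PIG-Q (936), Graf/mRpL3 (902), ERp44/CG3632 (896), Ripalpha/RpL7 (892) and CG11309/CG7632 (827). U2af50 encodes the large subunit of the splicing factor that reads the 3′ splice site, and PIG-Q an enzyme of lipid anchor synthesis. Just above the limit, and so left out, were Cand1/pim (1100, rank 287), GLaz/Spt-I (1062) and CG32313/Pcyt1 (1058). The lowest members were bol/Dhpr (128.01), CG11586/VhaM9.7-a (127.97) and Surf6/RhoGAP92B (127.78). Ubc10/CG5033 (127.45, rank 2896) and HtrA2/mRpL11 (126.99) fell just below.

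The replicates gave similar but not equal signals at these summits. A summit was listed within 200 bp in both replicates for 384 of 385 members, with a median signal of 99.2 in replicate 1 and 90.2 in replicate 2. The exception was pie/Wdfy2, listed at 226 in replicate 1 with no summit that close in replicate 2. Signal was higher in replicate 1 at 246 members, with a median log2 ratio of 0.16 (SD 0.64 over 384 summits), and 44 differed by more than 1 log2. At single-gene promoter summits the median was 0.26 (SD 0.57 over 1047). Taking as many top regions of each replicate as there are reproducible peaks, both replicates held 247 members (64.2%), against 697 single-gene summits (65.9%). The largest differences towards replicate 1 were at hdm/Ykt6 (118 in replicate 1, 20.1 in replicate 2), CG42340/CG3918 (107 and 22.8) and Pez/Cpr (99.3 and 29.3). Ykt6 encodes a membrane fusion protein and Cpr the reductase that feeds electrons to cytochrome P450 enzymes. Towards replicate 2 they were at CG15387/sau (21.1 in replicate 1, 114 in replicate 2), S/ast (38.6 and 177) and MSBP/CG15916 (47.2 and 208). The matched replicate 2 summits of CG42340/CG3918 and S/ast lay 131 and 129 bp away. The pooled signal that chose the members was made from both replicates, so this match is in part fixed.

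**Figure D2:**
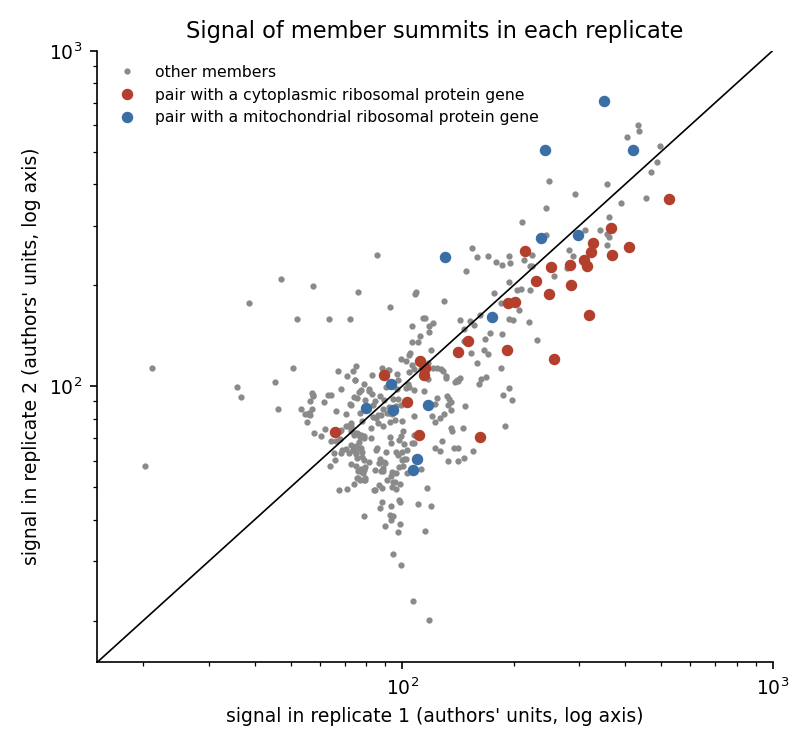
Signal of 384 members in replicate 1 (horizontal) and replicate 2 (vertical), both in the authors' units on log axes, with the line of equal signal. Blue points are pairs with a mitochondrial ribosomal protein gene. Points of pairs with a cytoplasmic ribosomal protein gene (red) lie mostly below the line, with 25 of 29 higher in replicate 1, and the highest point is Cdk1/mRpS7.

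Divergent pairs in the annotation were next taken as a whole, to see how many carried such a summit. Of 13865 protein-coding genes on the 5 arms, 3864 (27.9%) had an opposite-strand partner within 500 bp, in 2023 pairs. A summit of the members' ranks lay within 500 bp of both TSSs at 377 pairs (18.6%), which are called bound below. Of the rest, 1593 had no peak of the authors' reproducible list within 500 bp of either TSS and are called unbound. The last 53 had such a peak near a TSS but none of these ranks near both. Counted by gene, 20.3% of genes in divergent pairs had such a summit within 500 bp of a TSS, against 9.47% of the 10001 genes without a partner. A summit between 2 genes counts for both, so these shares are not of separate events. The share of bound pairs was 19.6% (16.1 to 23.6%) for head-to-head TSSs up to 100 bp apart, 17.1% from there to 200 bp, 21.2% (17.9 to 24.9%) to 300 bp, 19.0% to 400 bp and 13.3% (9.66 to 18.0%) to 500 bp. These shares were not tested against each other.

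Genes of the cytoplasmic ribosome had the highest share of the 17 gene lists, each a set of genes taken by symbol. For genes in divergent pairs the background was 18.1% (699 of 3864) with a summit at their pair. Of 36 cytoplasmic ribosomal protein genes in divergent pairs, 27 had one (75.0%, 58.9 to 86.2%). The list was chosen with earlier results of these data known, in which ribosomal protein genes were already prominent, so its share is not independent evidence. The summits numbered 29, with a median signal of 432 against 176 at the other 356 members. These others include both summits at sta/inc, since sta encodes a ribosomal protein but lacks the symbol of the list. The highest were at Ripalpha/RpL7 (892), Nelf-E/RpL14 (666), Dref/RpL13 (656) and RpS25/CG4820 (615). Nelf-E encodes a subunit of the complex that holds RNA polymerase II in a paused state. At Dref/RpL13 the signal was 366 in replicate 1 and 297 in replicate 2. Genes of the list in divergent pairs that lacked such a summit included RpS19b, RpS28a, RpL24-like, RpS15Ab, RpS13 and RpL7-like at unbound pairs, and RpS27 and RpL31 at pairs in neither the bound nor the unbound class.

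At pairs with a cytoplasmic ribosomal protein gene, the summit mostly sat nearer to the TSS of that gene than to its partner's. It was nearer to the ribosomal protein TSS at 26 of 29 summits (89.7%, 73.6 to 96.4%). The median distance was 20 bp to this TSS and 252 bp to that of the partner, and the median position was 20 bp upstream of the ribosomal protein TSS (listed as -20 bp, quartiles -49 and -9 bp). At Rok/RpS19a the summit lay 9 bp from the TSS of RpS19a and 471 bp from that of Rok, a protein kinase gene. At BCAS2/RpL4 it lay 20 bp from the TSS of RpL4 and 445 bp from that of BCAS2. The exceptions included the lower summit of RpL34b/CG8132 described above and RpLP0-like/14-3-3zeta. RpLP0-like was taken in by its symbol. The list does not hold sta, and both summits of sta/inc were nearer to the TSS of inc, at 165 and 364 bp. The count was again 26 of 29 with the summits of replicate 1, with those of replicate 2 and with the most upstream TSS of each gene. Each replicate summit was the one nearest to the pooled summit within 200 bp, so its count was in part fixed. At the 13 summits with a mitochondrial ribosomal protein gene, 4 were nearer to that gene (30.8%, 12.7 to 57.6%; 38.5% with the most upstream TSS), with a median of 141 bp to its TSS and 98 bp to that of the partner. This count was made after the values were seen and has no test.

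**Figure D3:**
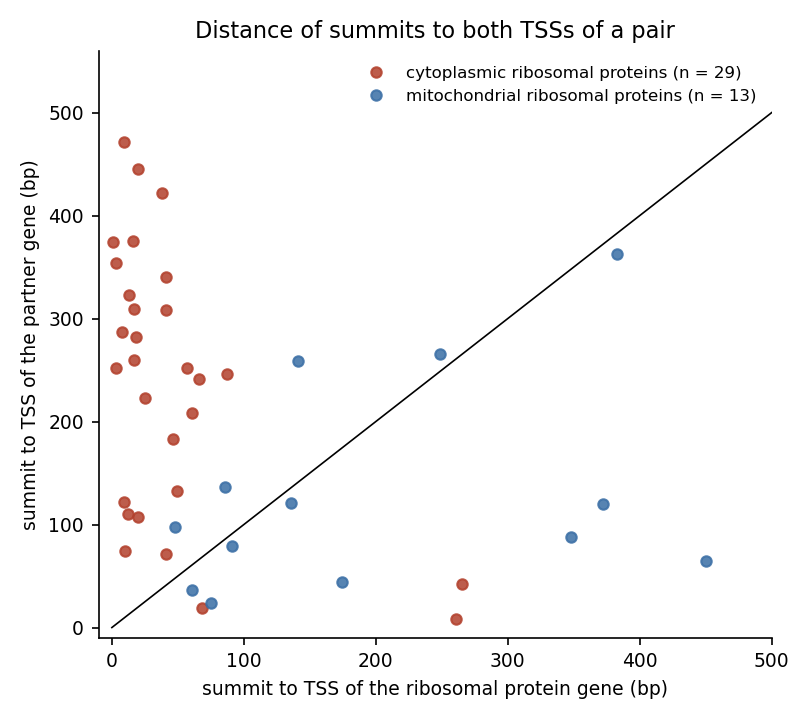
Distance in bp from the summit to the TSS of the ribosomal protein gene (horizontal) and of its partner (vertical), with the line of equal distance, for pairs with a cytoplasmic (red, 29 summits) or mitochondrial (blue, 13 summits) ribosomal protein gene. Red points form a column near 0 on the horizontal axis, with 26 of 29 above the line, whereas 4 of 13 blue points lie above it.

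Among the other lists the shares were lower. Mitochondrial ribosomal protein genes had a summit at their pair in 11 of 53 cases (20.8%), near the background of 18.1%, with Cdk1/mRpS7 (1021), Graf/mRpL3 (902), Taz/mRpL18 (662) and Art3/mRpS10 (580) the members of highest signal with such a gene. The TSSs of Graf/mRpL3 lie 515 bp apart, beyond the 500 bp that define a pair in these counts. Splicing factor genes had one in 9 of 19 cases (47.4%, 27.3 to 68.3%), at U2af50/PIG-Q (936), Oda/SmD3 (284), Mi-2/Prp3 (178), alpha4GT1/Prp40 (176) and 5 more, with a median signal of 152. Genes of the exosome and RNA decay list had one in 5 of 11 cases (45.5%, 21.3 to 72.0%), and at Rrp5/Dis3 (132) both genes are of the list. Rrp1, taken in by its symbol, encodes a DNA repair nuclease. Of the 5 insulator and chromatin protein genes in divergent pairs, 3 had one, at Dref/RpL13, Chro/Ssl1 (353) and Cp190/CG4338 (307). Chro and Cp190 encode proteins found at the borders of chromatin domains together with BEAF-32. In the cell cycle list 4 of 11 had one, namely Cdk1, dup (204), CycC (180) and Cdk12 (149). CycC and Cdk12 were taken in by their symbols, which do not show a role in the cell cycle. Dup loads the replicative helicase at origins.

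Other housekeeping lists lay near the background or below it. Oxidative phosphorylation genes had a summit in 8 of 37 cases (21.6%), translation factors in 4 of 20, aminoacyl-tRNA synthetases in 4 of 21, Mediator subunits in 3 of 17, vesicle traffic genes in 8 of 46 and chaperones in 2 of 9. Translation factor pairs were RpL28/eIF1 (490), eIF4EHP/CG18428 (474), eIF3h/senju (379) and eIF3a/CG1074 (322). Proteasome genes had a summit in 2 of 24 cases (8.33%, 2.32 to 25.8%), among them dgo/Prosbeta5 (146). RNA polymerase subunits had one in 1 of 19 cases, Polr3E, and general transcription factors in 1 of 13, TfIIB at Bug22/TfIIB (668). None of 9 DNA replication genes had one, and its interval reaches 29.9%. Genes known by a CG number only had one in 214 of 1317 cases (16.2%).

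**Figure D4:**
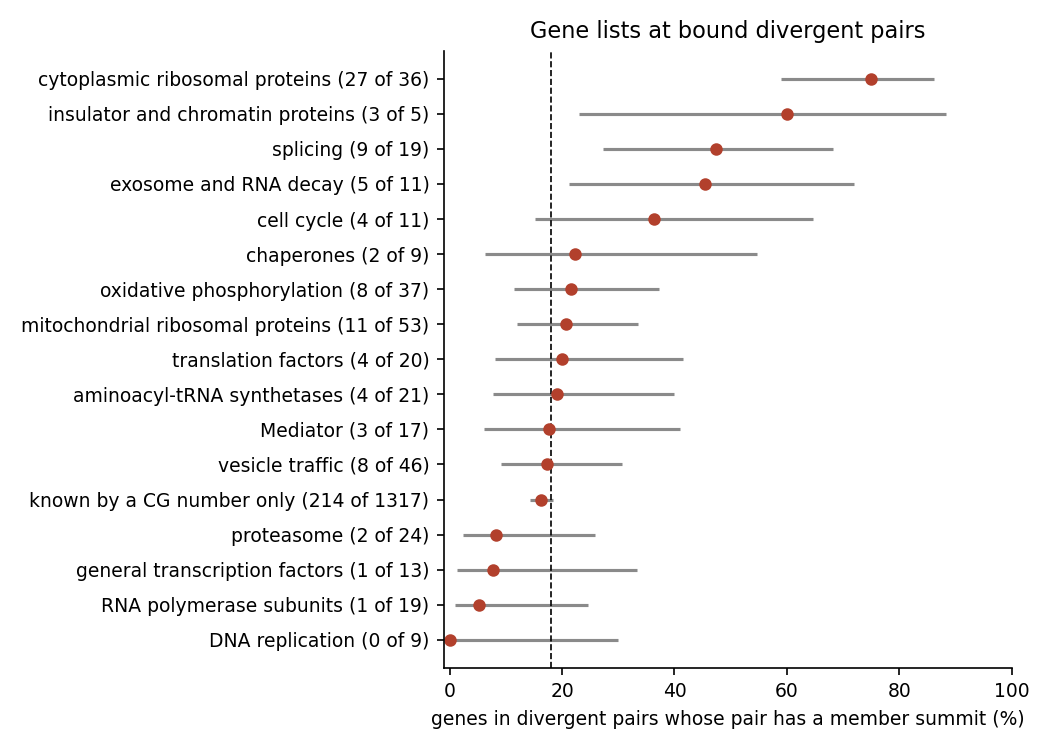
Share of the genes of each list that lie in divergent pairs and whose pair had a member summit, in percent, with 95% Wilson intervals and the counts behind each point. The dashed line is the 18.1% of all genes in divergent pairs, and the cytoplasmic ribosomal proteins lie at 75.0%.

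Sequence was not used to choose the members, and was first compared between each summit and its own flank, a window of the same length (50 bp to each side) centred 400 bp away on a random side. Of 18 motifs, 5 were more frequent at summits and none was less frequent (two-sided exact McNemar test, adjusted over the 18 by Benjamini-Hochberg). A motif was called where its adjusted p was under 0.05 with a ratio of 1.5 or more in either direction. The DRE was in 12.7% (9.76 to 16.4%) of summit windows and 2.34% of flanks, a ratio of 5.44 (exact McNemar test, adjusted p = 9.29e-08). The BEAF-32 core CGATA, which every DRE contains on its other strand, was in 31.9% and 12.7% (exact McNemar test, adjusted p = 6.42e-09), and 74 summits held it without a DRE. The TATA box TATAAA was in 17.4% and 8.05% (exact McNemar test, adjusted p = 0.00183), the Ohler 5 element CAGCTNTT in 6.75% and 1.82% (adjusted p = 0.00593) and the M1BP motif GGTCACAC in 4.68% and 1.04% (adjusted p = 0.0156). M1BP is a factor of promoters with paused RNA polymerase II, and Ohler 5 is a core promoter element. Without replicate 1 the M1BP and Ohler 5 calls were lost (ratios 1.5 and 2.40, exact McNemar test, adjusted p = 0.637 and 0.0726). The M1BP call was also lost with the flank on the other side (ratio 2.25, exact test, adjusted p = 0.170) and without the lower summit of pairs with 2 summits (2.57, adjusted p = 0.111). GGAACG was in 7.53% (5.30 to 10.6%) of summit windows and 3.90% of flanks, which did not pass the threshold (exact McNemar test, adjusted p = 0.146). This comparison depended on the setting. The ratio was 1.35 without replicate 1 (exact test, adjusted p = 0.637) and 4.17 without replicate 2 (adjusted p = 0.00395). It was 2.64 with the flank on the other side (exact test, adjusted p = 0.0231), 1.44 in windows of 100 bp to each side (adjusted p = 0.347) and 0.82 with a TSS limit of 300 bp (adjusted p = 1).

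Coding sequence differed between summits and flanks as well. A coding exon was touched by 59.2% of flank windows and 2.08% of summit windows, and G+C averaged 39.9% ± 10.8 (SD, n = 385) at summits and 46.7% ± 10.4 in flanks. Over all 6-mers, 64 (3.08%) were called higher and 64 (3.08%) lower in summit windows. Ratios were largest at 5.75 for CTGTTA, 5.67 for AACCCT, 4.75 for AGCTAG, 4.40 for GATACA, 3.95 for TATCGA, 3.83 for TAGTAA, 3.80 for AACTGT, 3.72 for CGATAG, 3.67 for GATAGC and 3.64 for TTAAAA. Both TATCGA and CGATAG overlap the DRE. Among the 157 members whose flank touched no coding exon, 0 6-mers were called in either direction, and of the motifs only the BEAF-32 core was (ratio 1.78, exact McNemar test, adjusted p = 0.0336). The DRE ratio there was 2.25 (exact test, adjusted p = 0.248).

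Against single-gene promoter summits of the same ranks, members carried the DRE and the BEAF-32 core more often and the GAGA and initiator motifs less often. The DRE was in 12.7% of 385 member windows and 5.77% of 1058 single-gene windows, 6.96 percentage points apart (95% Newcombe interval 3.61 to 10.9; Fisher's exact test with adjustment over 18 motifs, adjusted p = 2.41e-04). The palindrome of the RpS25 window was in 6.75% of member and 2.74% of single-gene windows. The BEAF-32 core was in 31.9% and 20.3% (Fisher's exact test, adjusted p = 1.16e-04). GAGAGAG, the site of GAGA factor, which keeps promoters of developmental genes open, was in 1.56% of member windows and 5.67% of single-gene windows (Fisher's exact test, adjusted p = 0.00309). The initiator TCAGTT or TCAGTC was in 8.31% and 14.0% (exact test, adjusted p = 0.0172). In windows of the same length at the TSSs of all protein-coding genes, GAGAGAG was in 1.20% and the initiator in 21.4%. For GAGAGAG the member share was thus near that of all promoters, and the single-gene share was above it. The TATA box was in 17.4% and 11.6%, whose ratio of 1.497 missed the limit of 1.5 (exact test, adjusted p = 0.0175). GGAACG was in 7.53% and 9.07%, a difference of -1.54 points (-4.46 to 1.92; exact test, adjusted p = 0.551). With a TSS limit of 300 bp it was called less frequent at members, in 9 of 268 member windows, a ratio of 0.351 (exact test, adjusted p = 0.00519).

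These calls depended on which single-gene summits served for comparison. Against the 628 single-gene summits within 100 bp of their TSS, the DRE ratio was 1.40 (Fisher's exact test, adjusted p = 0.217) and the BEAF-32 core ratio 1.25 (adjusted p = 0.137), both no longer called, while the TATA box passed at 2.02 (adjusted p = 6.94e-04) and GAGA missed at a ratio of 0.362 (adjusted p = 0.104). Of the members, 76.1% lay that close to a TSS. The DRE and BEAF-32 calls were also lost when only the upper ranks were kept, where 166 members gave ratios of 1.99 and 1.45 (exact test, adjusted p = 0.0876 for each). With a TSS limit of 300 bp the ratios were 1.59 and 1.38, neither called (exact test, adjusted p = 0.0983 and 0.0304). The DRE and BEAF-32 calls were kept when each replicate was left out. GAGA and the initiator were also not called in the upper ranks, at 0.423 and 0.461 (exact test, adjusted p = 0.680 and 0.0876). Nor were they with the 300 bp limit, at 0.372 and 0.711 (exact test, adjusted p = 0.0983 and 0.203). The BEAF-32 ratio was also under the limit in windows of 100 bp to each side (1.32). G+C averaged 39.9% ± 10.8 at members and 44.7% ± 9.66 at single-gene summits (SD, n = 385 and 1058). In windows of 35 to 50% G+C, which left 172 members and 560 single-gene summits, the DRE ratio was 2.56 (exact test, adjusted p = 3.45e-04). GAGA and the initiator were not called there, at ratios of 0.337 and 0.801 (exact test, adjusted p = 0.336 and 0.731). Nor was the TATA box, at 1.22 (exact test, adjusted p = 0.731). The TATA box was also not called without replicate 1 (1.46), without replicate 2 (1.21) or in the upper ranks (1.22). It was called with the 300 bp limit (1.73) and in windows of 100 bp to each side (1.52). Of all 6-mers, 45 (2.16%) were more frequent at members and 28 (1.35%) less, led by ACTCTA (3.53), GTACGA (3.44), AACTTA (2.69), TAATTA (2.53) and CTGTCA (2.49). Only 2 and 0 remained in windows of 35 to 50% G+C, and 26 and 12 were called without replicate 2.

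Bound pairs were compared with unbound pairs at the same place, 150 bp to each side of the midpoint of the TSSs. GGAACG and the CRE motif were more frequent at bound pairs, and no difference was detected for the DRE or the BEAF-32 core. The DRE was in 28.4% (24.1 to 33.1%) of 377 bound pairs and 30.6% (28.4 to 32.9%) of 1593 unbound pairs, a difference of -2.19 points (-7.08 to 3.05; Fisher's exact test, adjusted p = 0.609). The BEAF-32 core was in 60.2% and 59.9%, 0.33 points apart (-5.23 to 5.72; exact test, adjusted p = 1). The M1BP motif was in 10.3% and 13.1% (exact test, adjusted p = 0.375). GGAACG was in 12.5% (9.51 to 16.2%) of bound and 4.71% (3.77 to 5.86%) of unbound pairs, a ratio of 2.65 (Fisher's exact test, adjusted p = 5.16e-06). Since this sequence was taken from earlier results over all peaks of these data, its excess at bound pairs is not independent evidence. TGACGT, the core of the cAMP response element (CRE) read by basic leucine zipper factors, was in 12.7% (9.74 to 16.5%) and 6.28% (5.19 to 7.58%), a ratio of 2.03 (exact test, adjusted p = 6.67e-04). GGAACG passed in each of the 6 alternative settings, with ratios from 2.23 to 3.70. The CRE passed in all but 1, with TSSs at most 250 bp apart, where its ratio was 1.28 (exact test, adjusted p = 0.919). Unbound pairs can still hold a weaker region. Only 444 of the 1593 had no region of the authors' pooled list of 30000 within 500 bp of either TSS. Against these 444, 4 motifs were called more frequent at bound pairs. The ratios there were 2.64 for GGAACG and 1.95 for the CRE (exact test, adjusted p = 6.11e-04 and 0.0118).

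Bound and unbound pairs had similar geometry. The median spacing was 243 bp in bound and 241 bp in unbound pairs, and 3.71% of bound and 3.83% of unbound pairs overlapped. G+C averaged 37.0% ± 6.78 in bound and 35.9% ± 6.81 in unbound pairs (SD, n = 377 and 1593). Of all 6-mers, 78 (3.75%) were more frequent at bound pairs and 12 (0.577%) less. They were led by 3.79 for CCGAGG, 3.07 for CCCAGG, 3.04 for GCACCC, 2.95 for GAGGAC, 2.85 for GACGTA, 2.74 for CGGGAG, 2.73 for CTATAG, 2.72 for CCGGTA, 2.65 for CGTTCC and 2.52 for CGTAGC. Of these, CGTTCC is GGAACG on the other strand and GACGTA overlaps the CRE. With TSSs at most 250 bp apart, 0 were called in either direction among 202 bound and 845 unbound pairs. Replicative histone genes were in 42 unbound and 0 bound pairs. Some genes are in several pairs, so that some windows overlap. Expression, chromatin openness and mappability of the unbound pairs were not measured here, and were not tested.

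**Figure D5:**
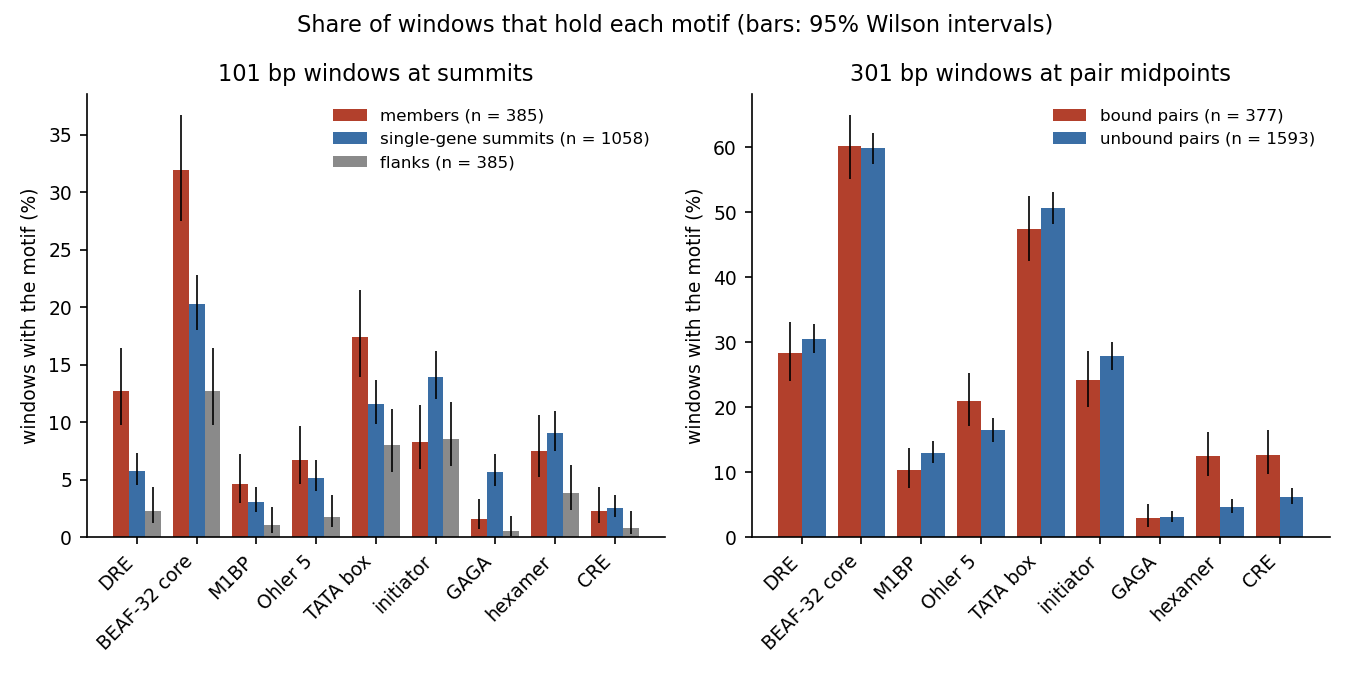
Bars give the percent of windows that hold each motif and lines the 95% Wilson intervals, for member summits, single-gene promoter summits and member flanks (left, 50 bp to each side of the summit) and for bound and unbound divergent pairs (right, 150 bp to each side of the midpoint). The hexamer is GGAACG, which was taken from earlier results over all peaks of these data. The DRE is higher in members than in single-gene summits (12.7% and 5.77%) and is in 28.4% of bound and 30.6% of unbound pairs, where the hexamer and the CRE are higher.

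A DRE was in 4 of the 29 summit windows with GGAACG (13.8%), against 12.7% of all members. Of all members, 213 of 385 (55.3%) had none of DRE, BEAF-32 core, M1BP motif, Ohler 5 and GGAACG. In windows of the same length at the TSSs of all 13865 protein-coding genes, the DRE was in 10.6%, the BEAF-32 core in 25.8% and GGAACG in 3.12%. The TATA box, the Ohler 5 element and the M1BP motif, called against flanks, were in 17.4%, 6.75% and 4.68% of member windows, against 17.0%, 5.99% and 5.61% of these promoter windows. The CRE was in 2.34% of member windows, 2.55% of single-gene windows and 2.72% of all promoter windows. GGAACG was in 13.3% (7.92 to 21.4%) of the 98 members down to rank 1000, in 12 of the 150 from there to rank 2000 and in 2.92% (1.14 to 7.27%) of the 137 of lower rank. Single-gene summits held it in 17.5%, 6.52% and 5.85% of these classes, for which no test was made. The DRE was in 18.4%, 15 of 150 and 11.7% of members, and in 7.46%, 6.52% and 3.72% of single-gene summits. The median signal was 245 with GGAACG and 179 without it, and 197 with a DRE and 179.5 without it. More than 1 copy of GGAACG was found at 2 members, sta/inc (344) and CG3857/CG3587 (174), where sta encodes a ribosomal protein that the list taken by symbol does not hold.

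Shares by spacing are likewise given without a test. GGAACG was in 15.6% of the 45 members with TSSs over 400 and up to 500 bp apart and 18.9% of the 37 with a wider gap. At narrower gaps it was in 3.33% of the 60 members up to 100 bp and 3.77% of the 53 from there to 200 bp. The median distance of its copies was 62.5 bp to the nearer TSS, and 31 bp for copies of the DRE. At pairs with a cytoplasmic ribosomal protein gene, the DRE was in 9 of 29 windows (31.0%, 17.3 to 49.2%) against 40 of the other 356 (11.2%, 8.36 to 14.9%), and GGAACG in 1 of 29, at BCAS2/RpL4, against 28 of 356 (7.87%). The TATA box was in 2 of 29 ribosomal protein windows and 65 of 356 others. Both sta/inc summits are among these others, and that of signal 344 held more than 1 copy of GGAACG. G+C averaged 47.9% in the ribosomal protein windows and 39.3% in the others, and its part in these shares was not tested.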

How the data were processed

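ChIP-seq of 2 biological replicates was deposited as peak lists on dm6, per the labels. The authors made 3 relaxed lists of 30000 regions each (1 per replicate and 1 pooled) with a shared control alignment, and a list of peaks that passed their irreproducible discovery rate threshold, which proved to be the pooled regions of highest signal. The sources used here name no aligner or peak caller. Deposited values are a signal per region, whose normalization is not given, a −log10 q-value that the authors wrote for each region, and the summit offset (a distance in bp, unit other). Coordinates are 1-based. No columns of other samples were present (0).

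TSSs of protein-coding genes came from Ensembl release 115 (BDGP6.54, dm6 coordinates) and sequence from the Release 6 assembly of RefSeq. Each region end lay within its arm. Ranks were counted on the arms of chromosomes 2 and 3, X and chromosome 4. The members, gene lists and motifs were chosen with earlier results of these data known. Motifs (18) and all 6-mers (each with its reverse complement) were read on both strands and scored as present or absent in a window. Tests were the exact McNemar test for summits and flanks (seed 1 for the side) and Fisher's exact test otherwise, two-sided, with Benjamini-Hochberg adjustment. They were run in Python 3.11.15, numpy 2.4.6, scipy 1.17.1, pandas 2.3.3 and matplotlib 3.10.9. The 6-mer tests were tried on simulated presence tables with independent 6-mers and windows, also between summits and flanks. Real 6-mers and some windows overlap, so that trial does not cover these data in full. Signals are described without a test, because they chose the members. Named are the 10 highest and 3 lowest members, 3 members of largest replicate difference each way, up to 4 of highest signal per list, members with 2 copies of GGAACG, the 3 smallest and largest spacings and those at the limits. Other pairs named served as examples chosen after their values were seen. Alternatives were the window, the TSS distance, the upper ranks only, each replicate alone, 1 TSS per gene, the flank side, the test, the class compared and the pair spacing. Values of a few single genes are not reported here.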

Additional observations from a re-analysis of the deposited data

How the results depend on the processing

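Among counts and shares recomputed for the comparisons, 63 stayed within 1.5 times the reported count or within its interval and 41 did not. Keeping the upper ranks only left 166 members and called 2 motifs and 1 and 0 6-mers against flanks, and 0 of each against single-gene summits. Windows of 100 bp to each side called 133 and 211 6-mers and 1 less frequent motif against flanks, and 4 and 1 motifs and 70 and 59 6-mers against single-gene summits. A TSS limit of 300 bp gave a median spacing of 221 bp, 1 and 1 motifs against single-gene summits, and a GGAACG ratio of 0.82 against flanks (9 and 11 windows, exact test, adjusted p = 1). With 1 TSS per gene, 69.3% lay between the TSSs. Flanks without coding exon called 1 motif and 0 and 0 6-mers, and the ratio of GGAGGA, less frequent at summits as reported, was 1.5 (3 and 2 windows). Single-gene summits within 100 bp of a TSS gave 1 and 1 motifs and 69 and 52 6-mers. Windows of 35 to 50% G+C gave 0 less frequent motifs, 2 and 0 6-mers and a GGAACG ratio of 1.23. For bound pairs, windows of 50 bp to each side gave 40 and 4 6-mers and a TATA box ratio of 1.05. TSSs at most 250 bp apart gave 1 motif and 0 and 0 6-mers, unbound pairs with no relaxed region 4 motifs and 107 less frequent 6-mers, and pairs without replicative histone genes 6 less frequent 6-mers. The causes were not tested. Leaving out 1 replicate gave 3 to 7 more frequent motifs and 51 to 79 and 60 to 94 6-mers against flanks, 26 to 34 and 12 to 21 6-mers against single-gene summits, and 78 to 80 and 13 to 19 6-mers at bound pairs, where 2 motifs were called either way. Settings for coding exons, G+C, histone genes, second summits of a pair and nearer TSSs were chosen after seeing the data. No ratio was given where 0 windows of a class held a sequence. No paired analysis was possible because both samples belong to 1 group, so replicate numbers pair no samples across groups. The McNemar test pairs each summit with its own flank. Read depth is unknown, so low signals cannot be given a counting error.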
